A study of Rattus norvegicus with 6 samples.

Results

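Proteins bound for secretion fold in the endoplasmic reticulum (ER), with the help of chaperones such as the 4 described here, Hspa5, Hsp90b1, Calr and Pdia3. When unfolded proteins build up or amino acids run short, cells phosphorylate eIF2alpha, and the transcription factor Atf4 is then made in larger amounts from its messenger RNA and raises genes such as Ddit3, Trib3 and Asns. Hormone-secreting pituitary cells carry a heavy load of secretory protein, and this response is at work in many secretory cell types. The 8 genes were chosen by Ensembl identifier, 4 ER chaperones and 4 genes of the Atf4 branch, out of 18413 genes in the table. All 8 were in the table, and all 8 passed the filter on low counts that left 14050 genes for testing.

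The libraries came from GH3, a tumour line from rat pituitary that secretes prolactin and growth hormone, labelled wild type. Controls (3 libraries) were set against cells treated with 100 nM TRH (3 libraries). TRH, thyrotropin-releasing hormone, is released by the hypothalamus and signals in lactotrophs and thyrotrophs through a receptor coupled to Gq. The labels give no duration of treatment, no vehicle for the controls (labelled NC) and no statement that the 3 samples of a group were separate cultures, so the p-values here rest on a spread among samples that may be technical. All libraries derive from 1 tumour line, and its hormone markers were not analysed here because the files do not pair identifiers with names. Total RNA of the cells was sequenced, and in such bulk samples fewer cells that express a gene and less of its RNA per cell cannot be told apart.

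Chaperone genes of this response share a promoter sequence, the ER stress response element, which is known to be bound by ATF6 together with NF-Y. It is shown first because Hspa5, Hsp90b1 and Calr all carry it, while their fitted log2 fold changes with TRH were -0.0054, -0.26 and 0.06, a spread that was not tested. The element was searched as CCAAT, then 9 bases of any kind, then CCACG, on both strands of RefSeq promoter windows (250 bases before to 50 after the annotated start, rat build GRCr8). Of the 8 genes, 7 had a window in the table, all but Pdia3. The element was present once in Hspa5, in Hsp90b1 at 2 places and once in Calr, and in 22 of all 33469 windows (0.0657%). In the stretches that follow, written 5′ to 3′ on the strand of the gene, capitals mark the 2 arms of the element.

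Hspa5, chr3:38452953-38453011, plus strand: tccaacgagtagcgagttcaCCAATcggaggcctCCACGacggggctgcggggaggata
Hsp90b1, chr7:23012431-23012489, minus strand: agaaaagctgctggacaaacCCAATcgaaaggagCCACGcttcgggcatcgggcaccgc
Hsp90b1, chr7:23012327-23012385, minus strand: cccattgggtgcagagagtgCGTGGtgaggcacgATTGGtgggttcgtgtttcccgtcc
Calr, chr19:40213117-40213173, plus strand: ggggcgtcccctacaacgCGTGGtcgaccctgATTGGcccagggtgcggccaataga

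The first base of the element lay 43 bases before the start in Hspa5, 176 and 72 bases before it in Hsp90b1, and 232 bases before it in Calr. The match in Calr and the nearer match in Hsp90b1 ran in reverse orientation. None of the 4 windows of the Atf4 branch held the element. The element's CCACG arm alone was present in 1 copy in each of Atf4, Ddit3 and Asns, and in 31.6% of all windows, since it is short. A second form of the element (ATTGG, any base, CCACG) was in none of the 7 windows and in 0.0508% of all windows.

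Atf4 and its partners bind composite sites whose core was searched as TGATGNAA on both strands. Among the 7 windows it was found only in Trib3, in reverse orientation with its first base 21 bases before the start, and it was in 3.98% of all windows. The stretch is shown because Trib3 had the largest fitted difference of the Atf4 branch; capitals mark the core.

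Trib3, chr3:161275534-161275581, minus strand: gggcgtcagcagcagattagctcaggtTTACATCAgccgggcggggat

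A match is a description of letters, and the absence of one says only that these letters are not in this window. In other genes of the pathway, listed by symbol, the ER stress response element was present in 4 of 13 ER folding genes with a window (Canx, Dnajc3, Creld2 and Ero1b), in 1 of 8 genes of ER-associated degradation (Derl3), in 1 of 11 stress sensors and regulators (Xbp1) and in 0 of 22 Atf4 targets. The Atf4-type core was present in 6 of these 22 targets (Chac1, Slc7a1, Aars1, Nars1, Nupr1 and Fgf21) in 0 of the 13 folding genes, in 1 of the 8 genes of ER-associated degradation (Herpud1) and in 1 of the 11 sensors and regulators (Ppp1r15b). The messenger RNA values of these other genes were not analysed here, because no identifier could be paired with a symbol.

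**Figure D1:**
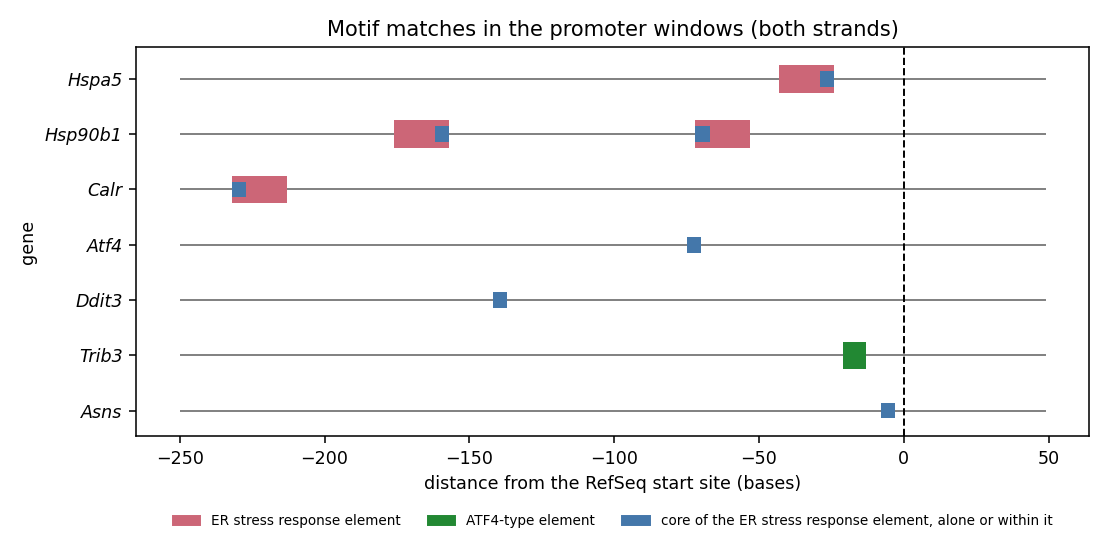
Motif matches in the promoter windows of 7 genes, by distance in bases from the RefSeq start site (0, dashed line); coloured blocks are matches on either strand. The ER stress response element appears in the 3 chaperone genes and the Atf4-type core only in Trib3.

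Both groups of transcripts were abundant in GH3 cells. The 8 transcripts together made up 0.827 ± 0.0544% of TPM in controls and 0.796 ± 0.0265% with TRH (SD, 3 libraries per group). TPM divides counts by gene length and scales each library to the same total, so levels of different genes can be compared on it. Atf4 stood highest, with a mean of 2002 TPM over the 6 libraries and rank 57 of 18413 genes. Calr (1559 TPM), Hspa5 (1448 TPM) and Pdia3 (1086 TPM) came next, followed by Asns (720 TPM), Trib3 (599 TPM), Hsp90b1 (435 TPM) and Ddit3 (269.5 TPM, rank 629).

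Some neighbours in this order were not separated. The ranges of Calr (1477 to 1645 TPM) and Hspa5 (1298 to 1533 TPM) overlapped, although Calr was higher in 6 of 6 libraries. Asns and Trib3 overlapped too, with Asns higher in 6 of 6 libraries, by 644 against 642 TPM in TRH replicate 3. Trib3 exceeded Hsp90b1 in 5 of 6 libraries, the exception being control replicate 1, at 497 and 532 TPM. The other 4 neighbouring pairs had ranges that did not overlap.

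None of the 8 transcripts differed between TRH and control libraries past the threshold. With edgeR's quasi-likelihood test and Benjamini-Hochberg adjustment over 14050 genes, 0 of 8 passed 0.05, as for 0% of all genes tested. Adjusted p-values of the 8 ran from 0.523 to 0.988. DESeq2's Wald test also called 0 of the 8, where it called 106 of the 12698 genes given an adjusted p (0.835%). At an unadjusted p under 0.05, edgeR gave 2 of 8, Hsp90b1 with a lower value and Trib3 with a higher one, where 8.99% of all genes tested had such a p (6.95% lower and 2.04% higher with TRH). Each of the 2 kept such a p in 8 of 15 alternatives.

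The 95% intervals rest, like the p-values, on a spread among samples that may be technical, and none is adjusted for the number of genes. Within that limit, the interval excluded a change of 1.5-fold in either direction for 8 of 8 transcripts. The interval of Ddit3 reached 1.47-fold. A change of 1.5-fold was likewise excluded for 54.6% of all genes tested and for 1142 of the 1348 genes at least as abundant as Ddit3. The median log2 fold change was -0.04 for the 4 chaperones and 0.12 for the 4 genes of the Atf4 branch. It was -0.0040 over all genes tested and 0.07 over these 1348 genes.

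**Figure D2:**
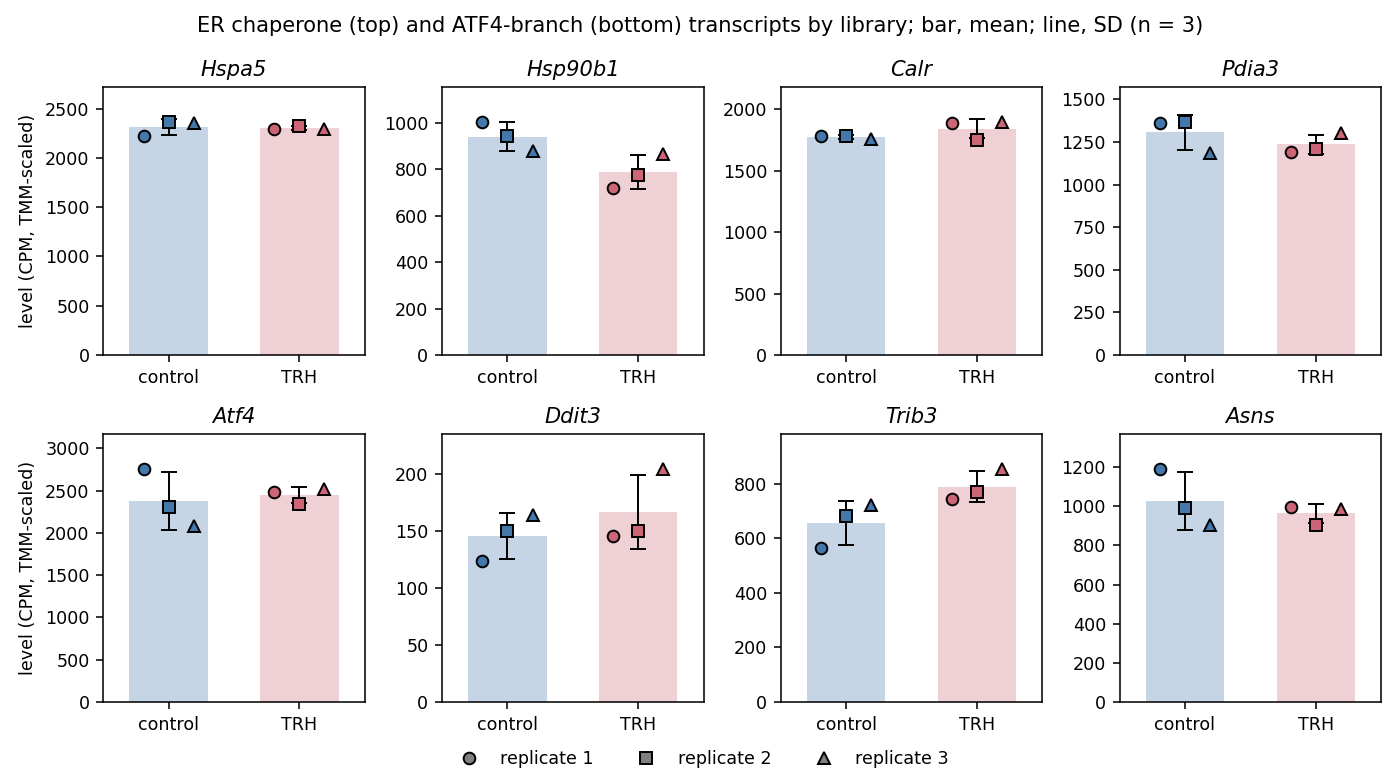
Level of each transcript in CPM (read counts scaled to the size of each library, with TMM factors) in the 3 control and 3 TRH libraries; bars are means, lines SD, and marker shapes give the replicate number. Hsp90b1 and Trib3 are the 2 transcripts whose control and TRH libraries do not overlap.

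Hsp90b1, known as GRP94, is the ER member of the Hsp90 family and folds a limited set of secreted and membrane proteins. Hsp90b1 (ENSRNOG00000026963) stood at 1002, 941 and 876 CPM in the control libraries and 720, 774 and 865 CPM in the TRH libraries. All 3 TRH libraries lay below all 3 controls, with TRH replicate 3 and control replicate 3 only a little apart. Of all genes tested, 10.2% were lower with TRH without overlap, as were 71 of the 1348 genes at least as abundant as Ddit3. Hsp90b1 was the 1 such gene of the 8. Controls averaged 940 ± 62.7 CPM and TRH libraries 786 ± 73.2 CPM (SD, n = 3 per group). The fitted fold was 0.837 (log2 fold change -0.26 ± 0.10 SE, 95% interval from -0.49 to -0.03, adjusted p = 0.523 by edgeR), so the difference did not pass the test.

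In TPM the gap was wider: 532, 462 and 458 TPM in controls against 366, 396 and 393 TPM with TRH. On log2(TPM + 1) its log2 fold change was -0.33, on a scale where the median shift over all genes was -0.06. In rank, Hsp90b1 stood between 268 and 345 in controls and between 419 and 456 with TRH. Hsp90b1 is the longest of the 8 genes (3195 bases). The genes of its length class (2615 to 3865 bases, the fourth of 5 classes of equal size) had a median log2 fold change of -0.04. With offsets that removed each library's trend with gene length, its log2 fold change was -0.18 (edgeR adjusted p = 0.555). It was -0.28 without control replicate 1 and TRH replicate 3 together (adjusted p = 0.623). The RefSeq gene table lists 2 pseudogenes, Hsp90b1-ps1 and Hsp90b1-ps2, and the counting rule for reads shared with them was not stated.

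Hspa5, known as BiP, is the ER Hsp70 that binds unfolded chains and holds the stress sensors inactive. Hspa5 (ENSRNOG00000018294) stood at 2218, 2363 and 2353 CPM in controls and 2296, 2322 and 2289 CPM with TRH. The TRH values fell inside the control range, and the spread was the smallest of the 8 in the TRH libraries, at a coefficient of variation (SD over mean) of 0.747%. edgeR fitted a log2 fold change of -0.0054 ± 0.08 SE (95% interval from -0.19 to 0.17, adjusted p = 0.988), with a sign that turned under DESeq2 size factors (0.0097), no filter (0.0094) and length offsets (0.04). A change of 0.879-fold or less, or of 1.13-fold or more, lay outside this interval.

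Calr (calreticulin) is a lectin chaperone that binds calcium and newly made glycoproteins. Calr (ENSRNOG00000003029) stood at 1782, 1787 and 1758 CPM in controls and 1887, 1751 and 1896 CPM with TRH. TRH replicates 1 and 3 were above every control and TRH replicate 2 was below every control, so the groups overlapped. The control libraries were very close, at a coefficient of variation of 0.873%. edgeR fitted a log2 fold change of 0.06 ± 0.08 SE (95% interval from -0.13 to 0.24, adjusted p = 0.818), and it was -0.01 on log2(TPM + 1).

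Pdia3, known as ERp57, is a disulfide isomerase that works with calreticulin on glycoproteins. Pdia3 (ENSRNOG00000015018) stood at 1364, 1366 and 1188 CPM in controls and 1194, 1210 and 1301 CPM with TRH. Control replicate 3 was the lowest of the 6 libraries and lay beside TRH replicates 1 and 2, so the groups overlapped. edgeR fitted a log2 fold change of -0.08 ± 0.09 SE (95% interval from -0.29 to 0.13, adjusted p = 0.772). Pdia3 overlaps 3 other genes of the RefSeq list (Catsper2, Rnu105c and LOC120101948), and no source states whether counting used strand.

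**Figure D3:**
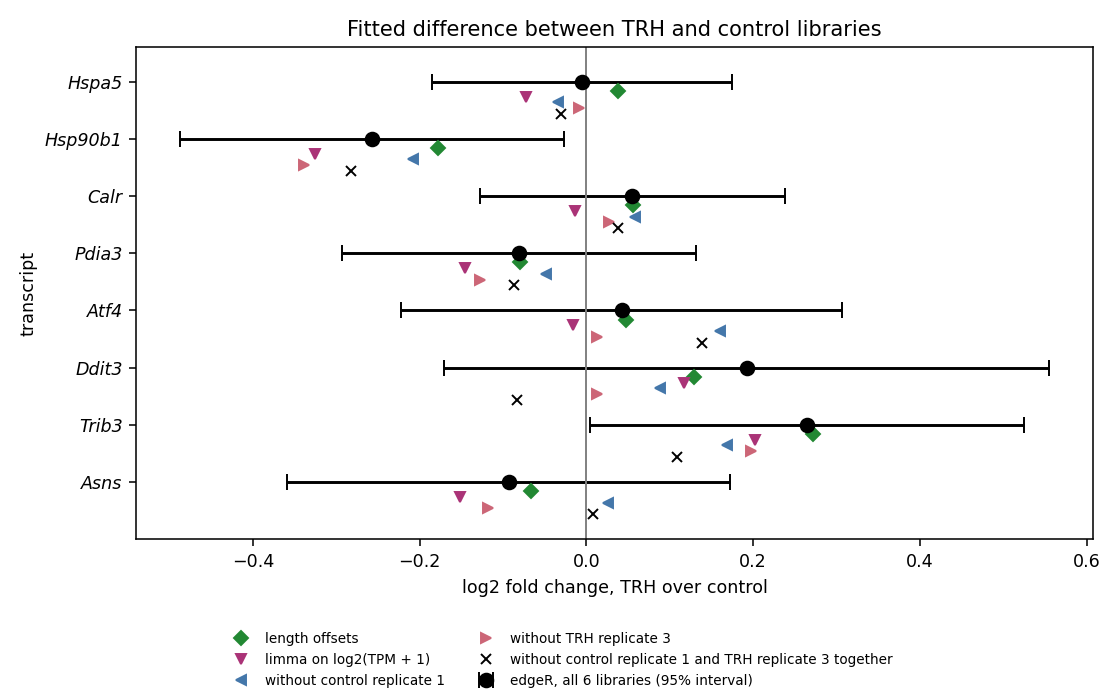
Log2 fold change of TRH over control for the 8 transcripts. Black circles and lines are edgeR values with 95% intervals over 6 libraries, and the other marks are the value under 5 alternatives. Hsp90b1 and Pdia3 stay below 0 and Trib3 above 0 in each. Hspa5, Calr, Atf4, Asns and Ddit3 pass to the other side under some, Ddit3 without control replicate 1 and TRH replicate 3 together.

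Atf4 is the transcription factor of the integrated stress response, controlled in large part at translation, so its messenger RNA need not follow its protein. Atf4 (ENSRNOG00000017801) stood at 2755, 2308 and 2076 CPM in controls and 2484, 2342 and 2525 CPM with TRH. The controls alone spanned 1.33-fold and enclosed all TRH values, with control replicate 1 the highest of the 6 and control replicate 3 the lowest. edgeR fitted a log2 fold change of 0.04 ± 0.12 SE (95% interval from -0.22 to 0.31, adjusted p = 0.910). It was -0.02 on log2(TPM + 1), 0.16 without control replicate 1 and -0.03 without control replicate 3.

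Trib3 encodes a pseudokinase that is induced by Atf4 and Ddit3 and is known to feed back on both. Trib3 (ENSRNOG00000007319) stood at 567, 682 and 724 CPM in controls and 744, 772 and 855 CPM with TRH. Every TRH library was above every control, and control replicate 1 lay well below the other two controls. Of all genes tested, 6.8% were higher with TRH without overlap, as were 181 of the 1348 genes at least as abundant as Ddit3. Trib3 was the 1 such gene of the 8. Controls averaged 658 ± 81.5 CPM and TRH libraries 790 ± 57.4 CPM (SD, n = 3 per group). The fitted fold was 1.20 (log2 fold change 0.27 ± 0.11 SE, 95% interval from 0.0046 to 0.53, adjusted p = 0.549 by edgeR), so the difference did not pass the test.

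The size of the Trib3 value rested in part on single libraries. Its log2 fold change was 0.17 without control replicate 1 (edgeR adjusted p = 0.948), 0.20 without TRH replicate 3 (adjusted p = 0.842) and 0.11 without both (adjusted p = 0.762). In TPM, the controls were at 497, 553 and 625 and the TRH libraries at 625, 652 and 642, which left control replicate 3 and TRH replicate 1 nearly level. With length offsets it was 0.27 (adjusted p = 0.444). Of all genes tested, 27.9% had a log2 fold change at least as large in size as that of Trib3, and 29.5% one at least as large as that of Hsp90b1.

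Ddit3 encodes CHOP, a transcription factor that promotes cell death when ER stress persists. Ddit3 (ENSRNOG00000006789) stood at 124, 149.6 and 164 CPM in controls and 145.5, 150.0 and 204 CPM with TRH. TRH replicate 3 stood above the other 5 libraries, and the remaining TRH values lay within the control range. edgeR fitted a log2 fold change of 0.19 ± 0.16 SE (95% interval from -0.17 to 0.56, adjusted p = 0.686). It was 0.01 without TRH replicate 3, 0.09 without control replicate 1 and -0.08 without both, so its direction rested on those 2 libraries. Ddit3 is the shortest of the 8 genes (925 bases), and the genes of its length class (49 to 1176 bases) had a median log2 fold change of 0.12. With length offsets its own value was 0.13. In the RefSeq list it overlaps Mars1 and LOC134479709, with the same limit on strand as for Pdia3.

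Asns, asparagine synthetase, makes asparagine from aspartate and glutamine and is a standard target of Atf4 when amino acids are scarce. Asns (ENSRNOG00000007546) stood at 1190, 989 and 903 CPM in controls and 996, 907 and 986 CPM with TRH. The controls enclosed the TRH values, and control replicate 1 was again the highest library, as for Atf4. edgeR fitted a log2 fold change of -0.09 ± 0.12 SE (95% interval from -0.36 to 0.17, adjusted p = 0.786), and it was 0.03 without control replicate 1.

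Among the controls, libraries lay farther apart for the 4 genes of the Atf4 branch than for the 4 chaperones. The coefficient of variation of CPM over the 3 controls was 12.4 to 14.5% for the 4 genes of the Atf4 branch and 0.873 to 7.83% for the 4 chaperones, with a median of 10.1% over the 1348 genes at least as abundant as Ddit3 and 13.8% over all genes tested. In the TRH libraries it was 3.91 to 19.5% in the Atf4 branch and 0.747 to 9.32% in the chaperones, with a median of 7.34% over the same 1348 genes and 11.2% over all genes tested. Counting error was small beside this, since the 8 genes had 5401 to 128882 counts per library, which allows a coefficient of variation of at most 1.36% from counting alone. The difference in spread between the 4 and the 4 genes was not tested.

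**Figure D4:**
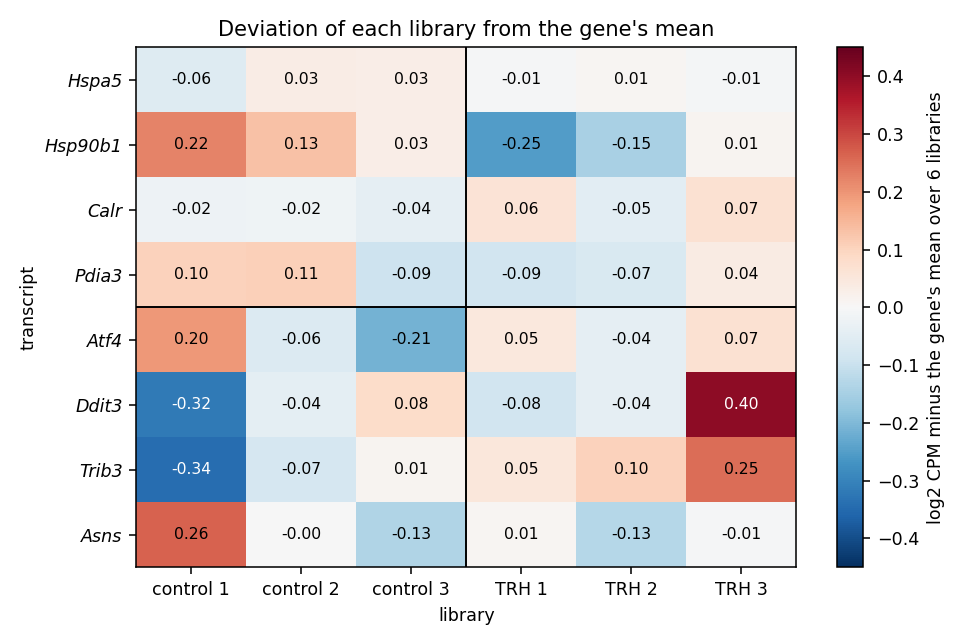
Log2 CPM of each transcript in each library minus its mean over the 6 libraries; red is above the mean and blue below, and the black lines divide treatments and gene groups. In control replicate 1, Atf4 (0.20) and Asns (0.26) are above their mean while Ddit3 (-0.32) and Trib3 (-0.34) are below it; in TRH replicate 3, Ddit3 (0.40) and Trib3 (0.25) are above.

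In control replicate 1 the Atf4 branch fell into 2 pairs. There Atf4 and Asns were the highest of the 6 libraries, and Ddit3 and Trib3 were the lowest. The log2 deviations from the mean of all libraries there were 0.20 for Atf4, 0.26 for Asns, -0.32 for Ddit3 and -0.34 for Trib3. In control replicate 3 the values were -0.21 for Atf4, -0.13 for Asns, 0.08 for Ddit3 and 0.01 for Trib3, which was near its mean.

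Ratios of 2 transcripts within a library do not depend on how libraries are scaled to each other. They re-express the same values from which the 2 pairs were read, so they are no separate support for these pairs. The ratio of Trib3 to Atf4 in TPM was 0.206, 0.296 and 0.350 in controls, a span of 1.69-fold, and 0.300, 0.330 and 0.339 with TRH. Control replicate 1 was the low value, and the TRH libraries lay inside the control range. The ratio of Ddit3 to Trib3 was 0.457, 0.459 and 0.473 in controls, close together while both genes varied, and 0.409, 0.407 and 0.499 with TRH.

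The ratio of Asns to Atf4 was the steadiest of the 28 ratios over the controls. It was 0.376, 0.373 and 0.379 in controls, a span of 1.02-fold. The median span was 1.32-fold over 907878 pairs of the 1348 abundant genes, and 0.249% of these pairs had a span as narrow. That share is for a pair taken at random, whereas Asns to Atf4 is the narrowest of 28. With TRH the ratio of Asns to Atf4 was 0.349, 0.337 and 0.340, below every control. The group means were 0.376 ± 0.0028 and 0.342 ± 0.0063 (SD, 3 libraries per group). This ratio was chosen after its values were seen and is given without a test.

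Of the 28 ratios among the 8 transcripts, 8 did not overlap between control and TRH libraries (28.6%), where 16.8% of the pairs of abundant genes did not. The 28 ratios share genes and so are not independent. Ratios with Hsp90b1 made up 5 of the 8 and further ratios with Trib3 made up 2, which leaves Asns to Atf4 as the only other one. These ratios are not adjusted for the libraries' trends with gene length, and Hsp90b1 is the longest of the 8 genes. With length offsets its log2 fold change was -0.18, against -0.26 without. The part of that trend in the ratios was not tested. Hsp90b1 relative to Calr, which carries the same promoter element, was 0.328, 0.307 and 0.291 in controls and 0.223, 0.258 and 0.266 with TRH. Relative to Hspa5 it was 0.362, 0.319 and 0.299 in controls and 0.251, 0.267 and 0.303 with TRH, where TRH replicate 3 lay above control replicate 3. The proportions of the 3 genes that share the element varied between libraries, also among the controls. There Hsp90b1 over Hspa5 spanned 1.21-fold, Hsp90b1 over Calr 1.13-fold and Hspa5 over Calr 1.08-fold. Each span was narrower than the median control span of 1.32-fold over the pairs of abundant genes.

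**Figure D5:**
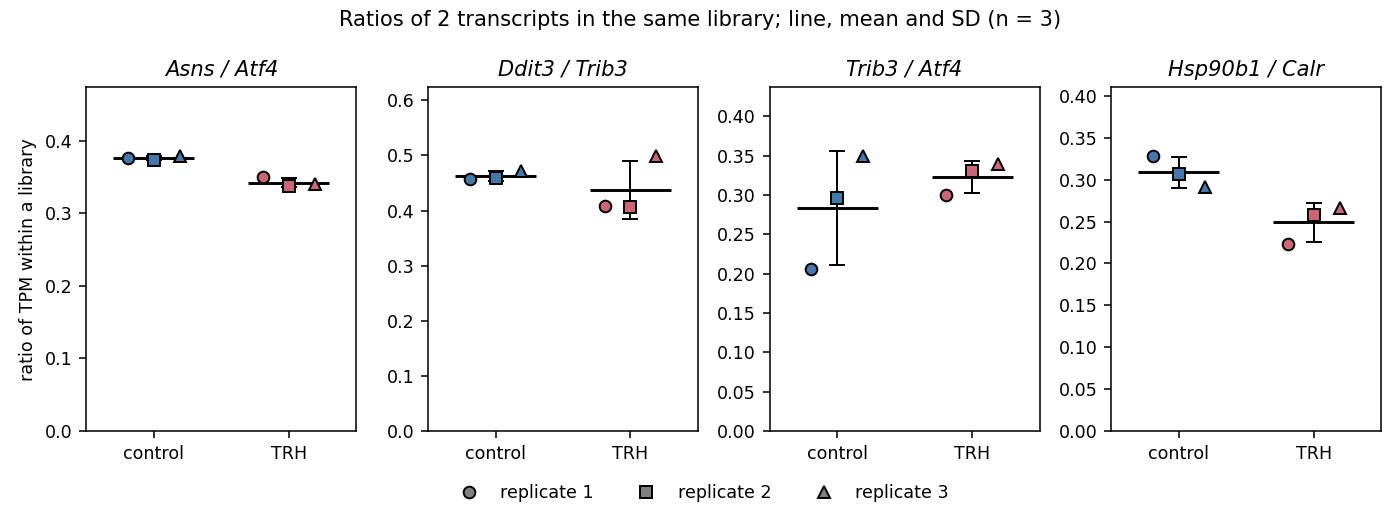
Ratio of TPM of 2 transcripts within each library (vertical axes start at 0); horizontal lines are means, vertical lines SD, and marker shapes the replicate number. Asns to Atf4 lies in narrow bands at 0.373 to 0.379 in controls and 0.337 to 0.349 with TRH, while Trib3 to Atf4 spans 0.206 to 0.350 in controls.

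Relations among the 8 transcripts over the 6 libraries were computed for 28 pairs on log2 CPM, and none passed adjustment. The strongest was Hspa5 with Atf4 (Pearson r = -0.90, exact permutation p = 0.0194, Benjamini-Hochberg adjusted p = 0.366; Spearman rho = -0.94, exact permutation p = 0.0167, adjusted p = 0.467). Without the 2 libraries farthest from the median of Hspa5 its r was -0.99 over 4 libraries. Ddit3 with Trib3 gave r = 0.87 (exact permutation p = 0.0514, adjusted p = 0.366) and rho = 0.71 (exact permutation p = 0.136, adjusted p = 0.762). Without the 2 libraries farthest from the median of Ddit3, control replicate 1 and TRH replicate 3, that r was -0.14. Leaving out the extremes of 1 of the genes narrows its range, so a fall in r alone does not show what the relation rested on. Within the controls the r of Ddit3 with Trib3 was 0.997 and within the TRH libraries 0.985, with these 2 libraries included. Each of these values rests on 3 libraries, too few to set the pair apart. Within the controls, r was as far from 0 for Ddit3 with Asns (-0.9999) and Atf4 with Asns (0.999), though not for Hspa5 with Calr (-0.30). Atf4 with Asns gave r = 0.85 (exact permutation p = 0.0556, adjusted p = 0.366) and rho = 0.71 (exact permutation p = 0.136, adjusted p = 0.762), and r = 0.46 without the 2 libraries farthest from the median of Atf4. All permutation tests were two-sided.

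Libraries held 43504159 to 52134239 counts. Control replicate 1 and TRH replicate 3 stood apart by gene length: the median log2 deviation of genes in the longest of 5 length classes minus that in the shortest was 0.37 and -0.44 in them, and between -0.17 and 0.15 in the remaining 4. Among the 8 genes, control replicate 1 was highest for 3 and lowest for 3, TRH replicate 3 highest for 3, control replicate 3 lowest for 3, control replicate 2 highest for 2, and TRH replicates 1 and 2 lowest for 1 each. The part of this trend in the pattern of the Atf4 branch was not tested. Both libraries entered every value above unless stated.

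The genes whose profile over the 6 libraries was most like the mean profile of the 4 chaperones, among 11810 other genes with a mean log2 CPM of at least 1, were ENSRNOG00000027408 (Pearson r = 0.996, Spearman rho = 1.00) and ENSRNOG00000056956 (r = 0.989, rho = 0.94). Those most like the mean profile of the Atf4 branch were ENSRNOG00000005539 (r = 0.998, Spearman rho = 0.94) and ENSRNOG00000037655 (r = 0.986, rho = 0.49). That mean profile was set mainly by TRH replicate 3, at 0.18 on the log2 scale with the other 5 libraries between -0.06 and 0.0052, and its 4 genes deviated in opposite directions in control replicate 1. The chaperones did not share 1 profile either. Hspa5 had a Pearson r of -0.24 with Hsp90b1, -0.25 with Calr and -0.34 with Pdia3. For Hsp90b1 it was -0.36 with Calr and 0.81 with Pdia3, and for Calr with Pdia3 it was 0.0039. An r above 0.95 with the mean profile was reached by 47 of the candidates for the chaperones and by 32 for the Atf4 branch. These genes were picked for their r, which is given as a description with no p, and no name is paired with them in the files.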

How the data were processed

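RNA of GH3 cells was sequenced on the Illumina XTen platform, per the labels. HISAT2 and bedtools appear in the submitters' processing notes without version or role, with genome build, annotation and strand setting not given in the sources used here. Raw counts for each Ensembl gene were deposited, with a second table that repeats the counts (100% equal) and adds gene length, FPKM and TPM. The deposited FPKM equal counts per kilobase of that length and per 1e6 counts of the library, and the deposited TPM are these values rescaled to a common total in each library.

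The 8 identifiers came paired with their symbols. The RefSeq gene table (GRCr8) held an Ensembl identifier in 0 of 47357 rows, so other genes and the fixed pathway and cell marker lists were not matched to values. Members, lists, motifs and alternatives were chosen with earlier results of these data known. The genes named were the 8 members, the 2 genes closest to each group's profile, and pathway genes by promoter motif alone.

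TRH and control were compared with the quasi-likelihood F-test of edgeR 4.0.16 in R 4.3.3 over 14050 genes kept by filterByExpr, with TMM scaling, no replicate block, Benjamini-Hochberg adjustment and a threshold of 0.05. CPM values are TMM-scaled. In all 6 pairs of replicates, counts differed by more than sampling noise, with chi-square at least 13.7 times its degrees of freedom. Alternatives used DESeq2 1.42.0, limma 3.58.1, other filters, length offsets (loess span 0.5), a replicate block and left-out libraries. The fits were tested on simulated data. Promoter sequences are from RefSeq.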

Additional observations from a re-analysis of the deposited data

How the results depend on the processing

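Of 120 values of the 8 genes under alternatives, 0 passed adjustment, 107 kept their direction and 13 reversed it. Hsp90b1 (-0.34 to -0.18), Pdia3 (-0.15 to -0.04) and Trib3 (0.11 to 0.35) kept their sign in 15 of 15 alternatives each. Hspa5 changed sign with DESeq2 size factors (0.0097), DESeq2's Wald test (0.0086), no filter (0.0094) and length offsets (0.038), and ran from -0.034 to 0.022 with single libraries left out. On log2(TPM + 1), Calr was -0.013 and Atf4 -0.016; over all genes this scale moved the median by -0.06. Atf4 ran from -0.030 to 0.16 and Asns from -0.16 to 0.026 with single libraries left out. Without control replicate 1 and TRH replicate 3 together, Ddit3 was -0.084 and Asns 0.0085. Over all genes, DESeq2's Wald test called 106, the fit without both libraries 1, and fits without single libraries 0 to 1, against 0 in the main test. The cause of these changes was not tested.

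Replicate numbers 1 to 3 occur in both groups, and no label links the libraries that share a number. A fit in edgeR with this replicate block called 0 genes, 1232 having an unadjusted p under 0.05 against 1263 without it; log2 fold changes were -0.26 for Hsp90b1 and 0.27 for Trib3. Deviations of equal-numbered libraries correlated at 0.29, -0.26 and -0.12, and libraries correlated best with their own number for number 1 only.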
